A study of Mus musculus with 12 samples.

Results

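The data described here are the 6 cytoplasmic RNA libraries of a study of Mettl14 in the mouse limb bud at embryonic stage E12.5, out of 12 libraries in the series. They were chosen by their labels, and no measured value was used to choose them. The libraries labelled cKO (n = 3) came from limb buds with the genotype Mettl14 flox/flox, given as a Mettl14 knockout. The libraries labelled cHet (n = 3) came from Mettl14 wt/flox limb buds and served as the heterozygous control. The Cre line that recombines the floxed allele, and the cells in which it acts, are not given in the sources used here. Each library is total RNA of the cytoplasmic fraction that was later loaded on sucrose gradients, so the nucleus is largely left out and every level below is one of cytoplasmic RNA. The labels call the 3 libraries of a group biological replicates but do not say whether a replicate is 1 embryo or a pool. The question put by this comparison is which cytoplasmic RNAs differ in level between limb buds labelled as Mettl14 knockout and as heterozygous.

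METTL14 is the partner of the methyltransferase METTL3 in the complex that writes N6-methyladenosine (m6A) on messenger RNA. The mark sits mainly in the motif GGAC and related letters, is dense in long exons and around stop codons, and is sparse near exon junctions. Reader proteins of the YTH family bind it, and methylated RNAs are in general degraded faster. In the limb bud at this stage, mesenchyme is patterned by BMP, FGF, WNT and Hedgehog signals, the ridge of ectoderm at the tip feeds growth, and the first cells condense into cartilage.

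The motif is shown here in 4 of the genes that the results below turn on, as the 60 coding bases within 1 exon that hold the most copies of GGAC, in capitals (GENCODE M21 transcripts, mm10). The first 3 genes were higher in cKO and the last was lower.

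Inka1, chr9:107984562-107984621, minus strand, exon 2 of 2: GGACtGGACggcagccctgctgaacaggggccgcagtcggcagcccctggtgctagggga
Lrrc4b, chr7:44462373-44462432, plus strand, exon 3 of 3: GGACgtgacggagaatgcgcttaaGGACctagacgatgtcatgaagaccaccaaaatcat
Msx2, chr13:53472405-53472464, minus strand, exon 1 of 2: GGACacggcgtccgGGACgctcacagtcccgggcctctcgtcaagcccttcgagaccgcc
Col9a2, chr4:121053145-121053204, plus strand, exon 28 of 32: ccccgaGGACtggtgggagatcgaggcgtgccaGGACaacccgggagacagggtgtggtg

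Each window holds 2 copies, and 64.9% of the 11530 tested protein-coding transcripts with coding bases hold at least 1 window with 2 or more on the coding strand. Per kilobase of transcript the motif occurred 7.80 times in Inka1, 4.77 in Lrrc4b, 2.85 in Msx2 and 10.6 in Col9a2. A match to these letters is a description and not a methylated site, because methylation was not measured in these libraries.

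Depth was 20571183 to 30068823 assigned reads in cHet and 17863321 to 26063921 in cKO. Levels are given as FPKM, the reads of a gene scaled by its length and by the depth of its library, and for a length of 1 kb the smallest step above 0 lay between 0.0320 and 0.0569 FPKM. Limb mesenchyme markers were high in all 6 libraries, with Hoxd13 at 212 to 433 FPKM, Twist1 at 228 to 363 and Prrx2 at 115 to 231. One library stood apart. In cKO replicate 3 the median log2 deviation from the cHet mean was 1.38 higher in the fifth of protein-coding genes with the most GC than in the fifth with the least. The same figure was between −0.127 and 0.0115 in the other 5. Its log2 values correlated with those of the other libraries at 0.926 to 0.937 across genes, where the others reached 0.990 among themselves. Results are therefore given with all 6 libraries and without this one.

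Mettl14, the floxed gene, had 4.09, 4.03 and 4.04 FPKM in cHet replicates 1 to 3 and 2.601, 3.32 and 1.26 in cKO replicates 1 to 3. All cKO libraries were below all cHet libraries, but RNA of the gene was present in each of them, with the most in replicate 2. The log2 difference was −0.83 (SE 0.32, adjusted p = 0.295, limma) with 6 libraries and −0.45 (SE 0.12, adjusted p = 0.0768) without cKO replicate 3, and neither passed the threshold of 0.05. These values cover the whole gene model, since the deleted exons are not given in the sources used here.

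With all 6 libraries no gene passed. Of 12977 genes, 0 changed (0% called), with a lowest adjusted p of 0.141, and 1943 had an unadjusted p under 0.05. The voom test on recovered reads also called 0, with 1984 at that level. Without cKO replicate 3, 249 of 12827 genes rose (1.94% called) and 77 fell (0.600% called). Their median log2 differences were 0.70 and −0.67, and 38 of the higher and 15 of the lower genes changed by a log2 of 1 or more. The adjusted p of these genes lay between 0.0420 and 0.0498, just inside the threshold, and 729 genes were under 0.06. Taf6 (−0.49, adjusted p = 0.0498) and Ankrd50 (0.45, adjusted p = 0.0498) stood just inside it, and Mmp23 (1.04, adjusted p = 0.0501) and Zfp866 (−0.58, adjusted p = 0.0501) just outside. Leaving out any 1 of the cHet libraries as well gave 0 genes, leaving out cKO replicate 1 gave 34 and leaving out cKO replicate 2, with a single cKO library left, gave 3735. With no filter on low values, or one at 0.1 FPKM, 0 genes passed, and the voom test on recovered reads of the same 5 libraries called 1577. Below, "rose" and "fell" refer to this 5-library test unless stated otherwise, and log2 differences are on the log2(FPKM + 0.1) scale.

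The library left out of that test was then read for the same genes. In cKO replicate 3, 217 of the 249 higher genes were above all 3 cHet libraries and 63 of the 77 lower genes were below all 3. These are 87.1% and 81.8% of the calls. Over all 12827 genes tested, this library was above all 3 cHet libraries in 51.0% and below all 3 in 36.7%. This background is not matched for GC content. Among protein-coding genes the median GC content was 53.5% in those that rose, 52.2% in those that fell and 50.5% in those not called. The median deviation of the 249 genes from the cHet mean was 0.84, 0.55 and 0.99 in cKO replicates 1 to 3, and that of the 77 genes −0.76, −0.56 and −0.54. The comparison shares its cHet libraries with the test that chose the genes. The 32 higher genes that cKO replicate 3 did not place above all cHet libraries had a median GC content of 42.8%, against 54.2% for the 217 that it did, which is the direction of this library's GC trend. With the GC and length trends removed from all 6 libraries, 231 of 12967 genes rose (1.78% called) and 53 fell (0.409% called). These 284 genes included 207 of the 326, which is 63.5% of the 5-library list and 72.9% of the other.

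**Figure D1:**
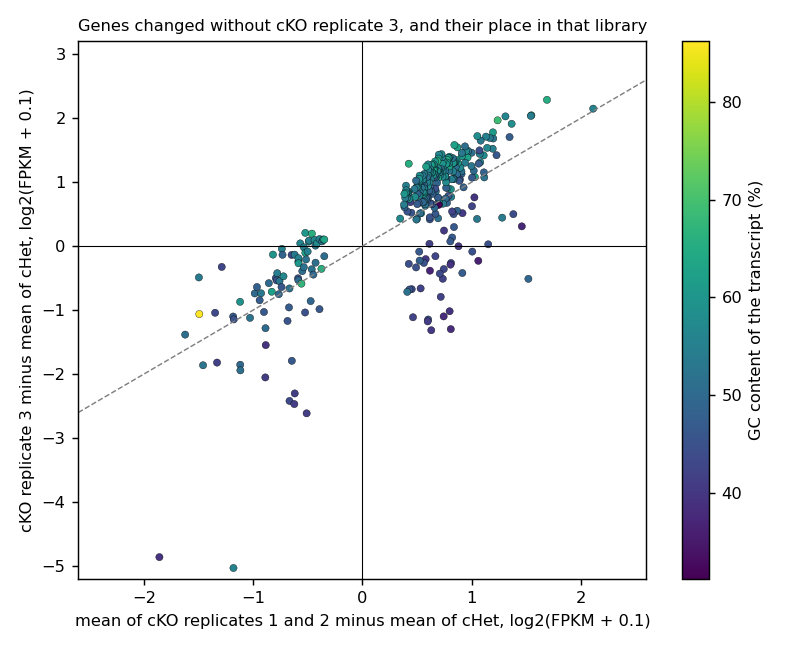
Each point is 1 of the 326 genes that changed without cKO replicate 3. The x axis is the mean of cKO replicates 1 and 2 and the y axis cKO replicate 3, both minus the cHet mean on the log2(FPKM + 0.1) scale, coloured by GC content of the transcript; the dashed line marks equal values. Most of the 249 higher genes are above 0 on both axes, and those below 0 on the y axis are mainly of low GC content.

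Of the 2 remaining cKO libraries, replicate 1 was farther from the cHet mean than replicate 2 in 238 of the 249 higher genes (95.6%) and in 61 of the 77 lower genes (79.2%). Over all tested genes it was farther in 76.0%, so the lower genes were near that share. Replicate 2 is also the cKO library with the most Mettl14 RNA. Whether these facts are related was not tested.

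The 12 protein-coding genes described first had separate groups in all 6 libraries and a mean of at least 5 FPKM in the higher group. Among such genes they rose most, and they encode proteins of several kinds. Lrrc4b and Lrfn3 are both leucine-rich repeat adhesion genes. Lrrc4b, for a leucine-rich repeat adhesion protein of synapses, had 5.38, 5.37 and 5.29 FPKM in cHet and 20.3, 12.3 and 22.4 in cKO. The lowest cKO library was more than any cHet library by a wide margin, and the cHet libraries hardly differed. The log2 difference was 1.55 (SE 0.19, adjusted p = 0.0420) in 5 libraries and 1.71 (SE 0.22, adjusted p = 0.141) in 6.

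Inka1, for an inhibitor of the kinase PAK4, was the most abundant of the 12, with 40.9, 35.4 and 41.4 FPKM in cHet and 119, 86.0 and 148 in cKO. Its groups were well apart, and the log2 difference was 1.37 (SE 0.14, adjusted p = 0.0420) in 5 libraries. Med18, a subunit of the Mediator complex of transcription, had 5.98, 5.52 and 6.30 FPKM in cHet and 19.3, 12.01 and 19.6 in cKO. Here cKO replicates 1 and 3 were level and replicate 2 lower, at a log2 difference of 1.35 (SE 0.19, adjusted p = 0.0420). Prr7, for a membrane protein of synapses and lymphocytes, had 12.9, 14.2 and 12.1 FPKM in cHet and 36.7, 25.9 and 51.2 in cKO. The log2 difference was 1.24 (SE 0.15, adjusted p = 0.0420), with cKO replicate 3 the highest library.

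Tigd2, a gene derived from a transposon, had 5.39, 5.50 and 5.20 FPKM in cHet and 17.9, 11.1 and 7.62 in cKO. It is the one of the 12 in which cKO replicate 3 was clearly the lowest cKO library, and its log2 difference was 1.38 in 5 libraries and 1.09 in 6. The other 7 were Asphd2 (1.31), Kctd6 (1.23), an adaptor of a ubiquitin ligase, Rasl11a (1.20), a small GTPase, Lrfn3 (1.19), a synaptic adhesion gene, Pced1b (1.19), Gja3 (1.17), for a connexin of gap junctions, and B3gnt9 (1.14), for a glycosyltransferase. All 12 had 1 to 6 exons.

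**Figure D2:**
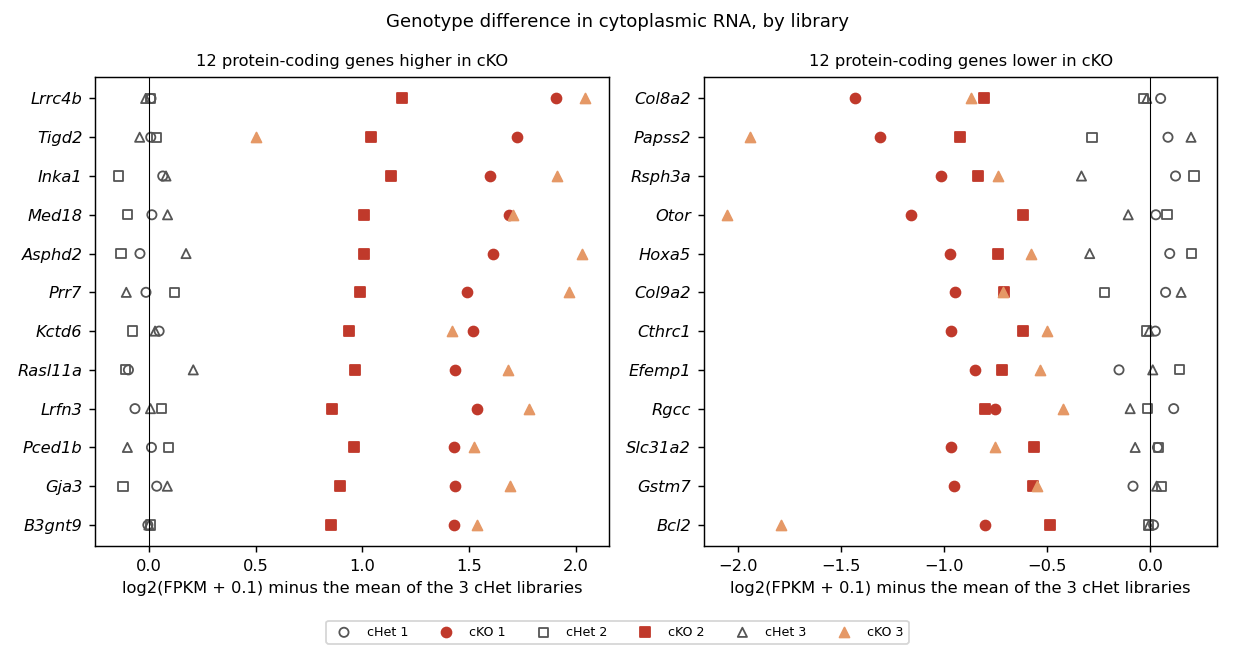
Points are libraries and rows are the 12 protein-coding genes that rose most and the 12 that fell most, as the difference of each library from the mean of the 3 cHet libraries on the log2(FPKM + 0.1) scale. Open symbols are cHet and filled symbols cKO; in all 24 genes the groups are separate, by the rule that chose them, and cKO replicate 2 is the cKO library nearest to cHet in most of the higher genes.

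The 12 protein-coding genes that fell most include several of cartilage and connective tissue matrix. Col9a2, for a chain of the collagen IX that coats collagen II fibrils, had 19.1, 15.6 and 20.2 FPKM in cHet and 9.36, 11.1 and 11.04 in cKO. The cKO libraries were close to each other and all lower, at a log2 difference of −0.83 (SE 0.13, adjusted p = 0.0444) in 5 libraries and −0.79 (SE 0.14, adjusted p = 0.141) in 6. Papss2, for the enzyme that makes the sulfate donor of cartilage proteoglycans, had between 7.73 and 10.8 FPKM in cHet and 3.74, 4.91 and 2.38 in cKO.

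Papss2 differed by −1.12 (SE 0.17, adjusted p = 0.0437) in 5 libraries and by −1.39 in 6, with cKO replicate 3 the lowest. Otor, a secreted protein gene of cartilage and the inner ear, had 6.91, 7.18 and 6.28 FPKM in cHet and 2.98, 4.38 and 1.56 in cKO. The log2 difference of Otor was −0.89 (SE 0.16, adjusted p = 0.0473) in 5 libraries. Its groups were separate, and cKO replicate 3 was again the lowest. The GC content of Otor is 41.0%, and in the fifth of genes with the least GC the median deviation of cKO replicate 3 was −0.98. With GC and length trends removed from all 6 libraries, the log2 difference of Otor was −0.98.

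Col8a2, for a network-forming collagen, had 6.40, 6.04 and 6.10 FPKM in cHet and 2.23, 3.48 and 3.33 in cKO, a log2 difference of −1.12 (SE 0.17, adjusted p = 0.0443). Cthrc1, for a secreted collagen-repeat protein, had 19.2, 18.6 and 18.8 FPKM in cHet and 9.61, 12.2 and 13.3 in cKO, and Efemp1, for a fibulin, 6.04, 7.42 and 6.78 against 3.69, 4.04 and 4.61. In both genes every cKO library was lower, at log2 differences of −0.79 and −0.78 (adjusted p = 0.0420 each). Hoxa5, which patterns the neck and forelimb level, had 7.55, 8.13 and 5.74 FPKM in cHet and 3.55, 4.19 and 4.70 in cKO (−0.86, adjusted p = 0.0485).

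Bcl2, the founding inhibitor of apoptosis, had 6.78, 6.66 and 6.67 FPKM in cHet and 3.7996, 4.75 and 1.86 in cKO. The cHet libraries were nearly equal and the cKO libraries ranged widely below them, with a log2 difference of −0.65 (SE 0.11, adjusted p = 0.0447). The others were Rsph3a (−0.93), for a part of motile cilia, Rgcc (−0.78), Slc31a2 (−0.77), for a copper transporter, and Gstm7 (−0.76), for a glutathione transferase.

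RNAs that do not code for protein made up 14 of the 249 higher genes (5.62%) and 19 of the 77 lower genes (24.7%), against 10.6% of all genes tested. The filter asked for at least 1 FPKM in at least 3 of the 5 libraries. A gene high only in the 2 cKO libraries could thus not enter, while one high only in cHet could. Gm24494, at 2.76, 2.32 and 3.44 FPKM in cHet and 0.957 and 0.508 in cKO replicates 1 and 2, entered through cHet alone. The higher and lower shares are therefore not on equal terms, and the part of the filter in them was not tested. Gm27202, a long noncoding RNA, fell most clearly, from 6.56, 7.34 and 6.61 FPKM in cHet to 1.59, 2.89 and 2.55 in cKO (log2 −1.62, SE 0.22, adjusted p = 0.0420), with the groups apart by more than 3 FPKM. Gm47467, another long noncoding RNA, differed by −1.33. The annotated U1 RNA copy Rnu1a1 (2.11) and the small RNA genes Gm26387 (1.52), Gm24494 (−1.86) and Gm22753 (−1.29) also passed. They are short or members of repeated families, so the assignment of their reads is uncertain. In cKO replicate 3, Gm26387 had 0.862 FPKM, below all cHet libraries, and Gm24494 was at 0. Gm14057 (1.54) and Gm20667 (1.46) were the other noncoding genes with the largest rise.

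BMP target and feedback genes were the signalling list with the most calls. Of 13 tested, 4 rose and 0 fell, and the median log2 difference was 0.35 in 5 libraries and 0.37 in 6, where the median of all tested genes was −0.01. In the fit of 6 libraries with GC and length trends removed, 3 rose and 0 fell. In 7 of the 13 all cKO libraries were above all cHet libraries and in 1 all were below, which over the 12827 genes held for 16.7% and 12.6%. Over the same genes 1.94% rose and 0.600% fell, and these shares are the background for every list below. The background is not matched for GC content or number of exons. Among protein-coding genes with 1 to 3 exons, 6.93% rose and 0.866% fell. All cKO libraries were above all cHet libraries in 33.9% of that class and below in 7.75%. For the fifth of protein-coding genes with the most GC, these 2 shares were 25.5% and 4.29%. Msx2, a homeobox gene induced by BMP in ridge and mesenchyme, had 22.3, 22.6 and 26.8 FPKM in cHet and 61.4, 43.4 and 53.1 in cKO. Every cKO library was well above every cHet library, and the log2 difference was 1.11 (SE 0.16, adjusted p = 0.0420) in 5 libraries and 1.13 (SE 0.16, adjusted p = 0.141) in 6.

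Bambi, for a decoy receptor that limits BMP and TGF-beta signals, had 10.97, 12.52 and 13.1 FPKM in cHet and 31.2, 21.1 and 34.5 in cKO (log2 1.07, SE 0.17, adjusted p = 0.0437). Atoh8, a bHLH factor gene downstream of BMP, had 18.4, 18.2 and 22.7 FPKM in cHet and 42.5, 34.7 and 51.5 in cKO (0.96, SE 0.13, adjusted p = 0.0420). Smad7, for the inhibitory SMAD, had 6.97, 7.04 and 7.81 FPKM in cHet and 13.1, 10.2 and 17.0 in cKO (0.66, SE 0.12, adjusted p = 0.0473). In all 3 genes the groups were separate and cKO replicate 2 was the lowest of its group.

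The ligands and transducers of the same pathway did not pass. Of 16 BMP and GDF ligands and secreted antagonists 0 changed, with a median of 0.09. Gdf5, the growth factor of joints in the series title, had 11.6, 11.3 and 15.1 FPKM in cHet and 20.6, 15.2 and 17.3 in cKO, so that the highest cHet and the lowest cKO library nearly met (0.49, SE 0.17, adjusted p = 0.115). Of 11 receptors and SMADs 0 changed. Acvr2b, a type II receptor, differed by 0.67 (adjusted p = 0.0583) and Smad1, a transducer of BMP signals, by 0.38 (adjusted p = 0.0506).

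The RUNX genes of the series title were low and did not pass. Runx2, which drives bone and hypertrophic cartilage formation, had 2.82, 2.09 and 2.05 FPKM in cHet and 1.36, 1.495 and 1.602 in cKO. All cKO libraries were lower, at a log2 difference of −0.65 (SE 0.17, adjusted p = 0.0744) in 5 libraries and −0.60 in 6. Runx1 (−0.07, adjusted p = 0.818) and Runx3 (−0.25, adjusted p = 0.423) had overlapping groups.

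Limb patterning transcription factors gave 5 higher and 0 lower genes of 34 tested, with a median of 0.11 in 5 libraries and 0.18 in 6. The counts were 3 and 0 in 6 libraries with GC and length trends removed. In 11 of the 34 all cKO libraries were above all cHet libraries and in 1 all were below, against 16.7% and 12.6% of all genes tested. Among protein-coding genes with 1 to 3 exons the shares were 33.9% and 7.75%, and the list was not matched for exons or GC content. Dmrta2, a doublesex-related factor gene, had the largest rise of the protein-coding genes that passed, from 1.02, 1.11 and 1.29 FPKM in cHet to 3.62, 4.16 and 5.92 in cKO (log2 1.69, SE 0.15, adjusted p = 0.0420), with separate groups and cKO replicate 1 the lowest of its own. Lhx2, a LIM homeobox gene of the distal mesenchyme, had 25.6, 25.8 and 30.5 FPKM in cHet and 54.6, 41.9 and 50.5 in cKO (0.81, SE 0.13, adjusted p = 0.0447). Sall1 (0.69, adjusted p = 0.0473), a zinc finger gene of distal limb growth, and Hand2 (0.43, adjusted p = 0.0494), which sets up the posterior limb, also had separate groups.

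Snai2, for a repressor of epithelial genes, rose in 5 libraries (0.67, adjusted p = 0.0448), but cKO replicate 3, at 42.3 FPKM, lay below the cHet libraries at 46.1 to 48.0. Of 28 Hox genes 0 rose and 1, Hoxa5, fell. After removal of GC and length trends from all 6 libraries, 1 Hox gene rose and 0 fell. Hoxd13, the most 5′ gene of its cluster, had 212, 232 and 289 FPKM in cHet and 433, 359 and 377 in cKO, with separate groups and an adjusted p of 0.0532.

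**Figure D3:**
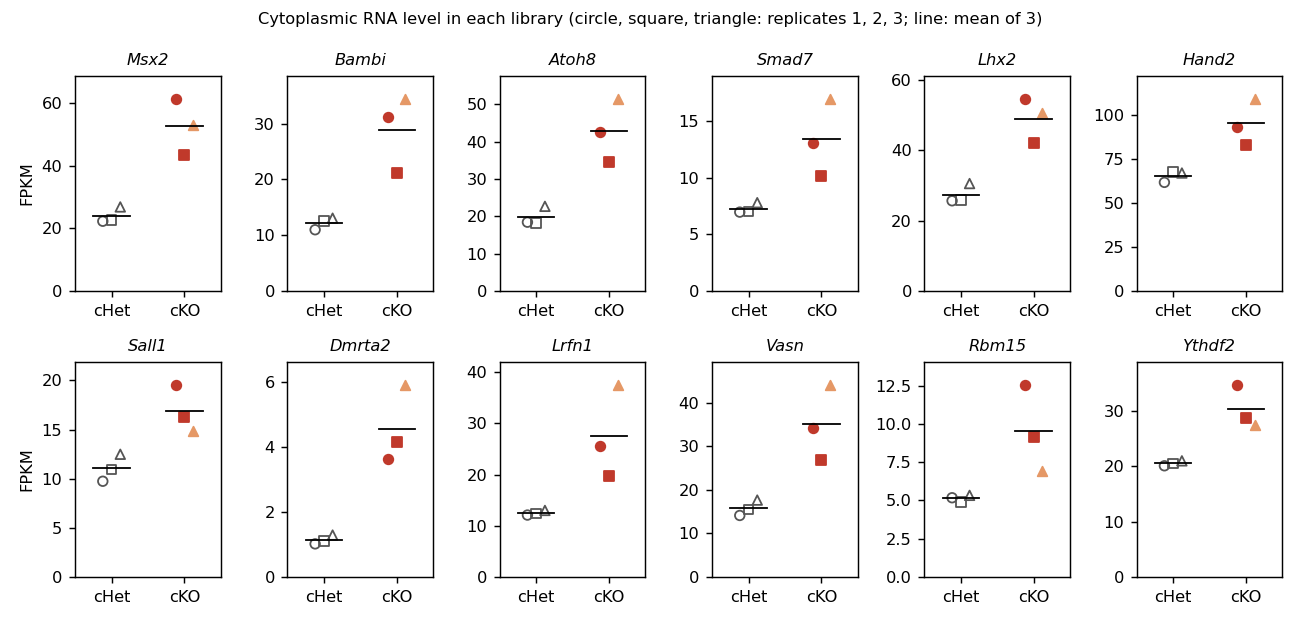
FPKM of 12 genes that rose without cKO replicate 3, in each of the 6 libraries, with the group mean over 3 libraries as a line and each axis from 0. In the 12 genes all cKO libraries lie above all cHet libraries, cKO replicate 3 included.

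Msx2 is also a gene of the apical ectodermal ridge, and the marker lists were read beside it. Of 8 ridge markers tested, 8 were higher in cKO, 2 rose (Msx2 and Dlx3, a distal-less homeobox gene, at 0.54, adjusted p = 0.0447) and the median was 0.38. Their summed level was 95.4 to 104 FPKM in cHet and 128 to 170 in cKO. The sum includes Msx2 itself, with a mean of 23.9 FPKM in cHet and 52.6 in cKO. Much of the rise in the sum is therefore that of Msx2. Fgf8, the defining ridge signal, had 7.13, 7.27 and 4.75 FPKM in cHet and 6.11, 6.71 and 11.2 in cKO, with overlapping groups (0.03, adjusted p = 0.930). Among the limb mesenchyme markers 0 of 12 passed, and their summed level was 824 to 1001 FPKM in cHet and 1114 to 1332 in cKO. This sum includes Hoxd13, with a mean of 244 FPKM in cHet and 390 in cKO. All cKO libraries were above all cHet libraries in 4 of the 12 and below in 0. In bulk tissue, a different share of cells of a type and a different RNA level per cell cannot be told apart.

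Macrophage markers were separate between the groups in 10 of 12 cases, all higher in cKO, but 0 passed. Over all genes tested, all cKO libraries were above all cHet libraries in 16.7%. Their median was 0.40 in 5 libraries, and their summed level was 61.3 to 70.8 FPKM in cHet and 77.5 to 111 in cKO. Csf1r, the receptor that defines these cells, had 2.77, 3.75 and 3.53 FPKM in cHet and 4.77, 4.28 and 5.55 in cKO. Erythroid markers went the other way in all 12 cases, with a median of −0.65 and 0 calls. Their sums overlapped, at 9330 to 23972 FPKM in cHet and 5799 to 14337 in cKO. Epidermis markers summed to 429 to 440 FPKM in cHet and 497 to 567 in cKO, and 1 of 18, the basal keratin gene Krt5, rose (0.35, adjusted p = 0.0473). Mitochondrial genes took 2.69% to 3.04% of reads in cHet and 2.30% to 4.85% in cKO. The part of such differences in the results above was not tested.

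Cartilage matrix genes gave 0 higher and 2 lower genes of 9 tested (Col9a2 and Otor), with a median of −0.54 in 5 libraries and −0.49 in 6. The counts were also 0 and 2 in 6 libraries with GC and length trends removed. Matn4, for a matrilin, had 6.40, 4.32 and 7.30 FPKM in cHet and 3.36, 3.49 and 3.44 in cKO, all lower (−0.76, adjusted p = 0.0793). The list did not move as a block. Col2a1, for the main cartilage collagen, had 23.5, 19.0 and 26.7 FPKM in cHet and 32.4, 24.2 and 35.7 in cKO, with overlapping groups and a log2 difference of 0.29 (adjusted p = 0.289). Sox9, the master regulator of cartilage, differed by −0.01 (adjusted p = 0.977), and of 13 chondrogenic transcription factors 0 changed. Col2a1, Sox9 and Fgf8 are named beyond the naming rule, after their values were seen.

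Other collagens and connective tissue matrix genes gave 0 higher and 3 lower genes of 33 (Col8a2, Cthrc1 and Efemp1). When GC and length trends were removed from all 6 libraries, 0 rose and 1 fell, Col8a2. All cKO libraries were below all cHet libraries in 11 of the 33 and above in 6. Over all genes tested the shares were 12.6% and 16.7%, so the 6 were near their share. Of 24 genes of proteoglycan chain synthesis and sulfation, Papss2 fell and Chsy1, for a chondroitin synthase, rose (0.58, SE 0.11, adjusted p = 0.0473), from 28.8, 30.5 and 32.3 FPKM in cHet to 50.7, 40.9 and 47.3 in cKO. In 6 libraries with GC and length trends removed, 0 of this list rose and 0 fell. Tendon markers were lower in 8 of 10 cases, with a median of −0.30 and 0 calls. Kera, for the proteoglycan keratocan, had 19.98, 23.9 and 21.8 FPKM in cHet and 9.13, 16.9 and 3.39 in cKO and thus a wide spread among cKO libraries (−0.81, adjusted p = 0.0885).

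Leucine-rich repeat adhesion genes, a family of cell surface proteins best known from synapses, were the list with the largest share of calls among those of more than 8 tested members. Of 21 tested in 5 libraries, 7 rose and 0 fell (Lrrc4b, Lrfn3, Lingo1, Vasn, Lrfn1, Amigo1 and Lrfn4), with a median of 0.55. The counts were also 7 and 0 in 6 libraries with GC and length trends removed. With 6 libraries 14 of 23 had all cKO above all cHet libraries, 1 had all below and the median was 0.57. Over all genes tested 16.7% had all above and 12.6% all below. Lrfn1 had 12.1, 12.4 and 13.0 FPKM in cHet and 25.5, 19.8 and 37.5 in cKO (0.84, SE 0.11, adjusted p = 0.0420). Vasn, for a TGF-beta binding protein of vessel walls, had 14.1, 15.5 and 17.7 FPKM in cHet and 34.2, 27.0 and 44.2 in cKO (0.95, SE 0.13, adjusted p = 0.0420). In both the cKO libraries were all higher, with replicate 3 the highest. The list was added after an earlier look at these data had shown several of its members among the highest genes, so its count carries no independent support.

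Among the genes of the m6A machinery, 2 of 8 writer subunits and 2 of 14 readers and erasers rose and 0 fell. When GC and length trends were removed from all 6 libraries, 0 writer subunits and 2 readers and erasers rose, and 0 fell. Rbm15, for the subunit that guides the writer to its targets, had 5.17, 4.88 and 5.33 FPKM in cHet and 12.55, 9.14 and 6.91 in cKO, all higher, with a log2 difference of 1.05 (SE 0.14, adjusted p = 0.0420) in 5 libraries and 0.84 (SE 0.21, adjusted p = 0.178) in 6. Cbll1, for the subunit Hakai, rose in 5 libraries (0.58, adjusted p = 0.0454), but cKO replicate 3 at 4.85 FPKM was below the cHet libraries at 5.47 to 5.84. Ythdf1, a cytoplasmic reader gene, had 41.3, 42.0 and 41.5 FPKM in cHet and 69.3, 56.2 and 69.6 in cKO (0.58, SE 0.10, adjusted p = 0.0447).

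Ythdf2, for the reader that recruits RNA decay enzymes, had 20.1, 20.5 and 20.96 FPKM in cHet and 34.7, 28.6 and 27.4 in cKO (0.62, SE 0.09, adjusted p = 0.0437). Both reader genes were higher in every cKO library. The third gene of this family, Ythdf3, differed by 0.26 (adjusted p = 0.0666) in 5 libraries and had 7.25 FPKM in cKO replicate 3, against 23.5 to 24.2 in cHet and 28.2 to 28.9 in the other cKO libraries. Without that library all cKO values were higher and with it the log2 difference was −0.40.

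Other signalling lists had few calls. In the WNT pathway 1 of 49 rose, near the share of 1.94% over all genes tested. It was Fzd10, a receptor gene, at 27.6, 29.6 and 29.2 FPKM in cHet and 54.8, 41.4 and 78.2 in cKO (log2 0.72, adjusted p = 0.0447). In 16 of the 49 all cKO libraries were above all cHet libraries and in 4 all were below, against 16.7% and 12.6% of all genes. These shares were 33.9% and 7.75% among protein-coding genes with 1 to 3 exons, and the list was not matched for exons or GC content. Of 8 SOCS genes, for inhibitors of cytokine signalling, 2 rose (Socs5 at 0.59 and Socs6 at 0.88), although Socs6 in cKO replicate 3 was within the cHet range. In the TGF-beta pathway 0 of 20 rose and 1 fell, Inhba, for an activin subunit, from 3.49, 3.40 and 3.13 FPKM in cHet to 2.01, 2.27 and 0.596 in cKO (−0.62, adjusted p = 0.0473). Of 22 FGF, 13 Hedgehog, 16 retinoic acid and 20 Notch pathway genes 0 changed by limma.

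Cell cycle and stress genes were mixed. Of 13 G1 cyclins and CDK inhibitors, the inhibitor genes Cdkn2c (0.48, adjusted p = 0.0454) and Cdkn2d (0.71, adjusted p = 0.0420) rose, the latter from 19.8, 17.7 and 21.03 FPKM in cHet to 34.3, 29.6 and 42.1 in cKO. Yet 10 of the 13 were lower, with a median of −0.18 and 0 that fell. All cKO libraries were below all cHet libraries in 4 of the 13 and above in 2. Of 36 DNA replication and mitosis genes 1 rose (Tk1, for thymidine kinase, at 0.70, adjusted p = 0.0420), although 28 of the 36 were lower. Of 45 replication-dependent histone genes 41 were lower and 0 passed. Interferon-stimulated genes (11 tested) and p53 target genes (21 tested) had 0 calls. In the integrated stress response list 1 of 22 rose, the gene of the mitochondrial enzyme Pck2 (0.72, adjusted p = 0.0429). Of the 22, 13 were lower, with a median of −0.10 and 0 that fell. All cKO libraries were below all cHet libraries in 5 of them and above in 4.

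Of 289 zinc finger genes named Zfp, 8 rose and 0 fell, where over all genes tested 1.94% rose and 0.600% fell. The direction of this list depended on cKO replicate 3. With 6 libraries 114 of the 289 were higher and the median was −0.09, while without that library 198 were higher and the median was 0.11. With GC and length trends removed from the 6 libraries the median was 0.04. Zfp628 had 8.78, 9.22 and 8.65 FPKM in cHet and 16.2, 14.8 and 21.2 in cKO, all higher (0.79, adjusted p = 0.0420). Zfp189 rose in 5 libraries (0.60, adjusted p = 0.0473), but had 1.95 FPKM in cKO replicate 3, the lowest of all 6 libraries.

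**Figure D4:**
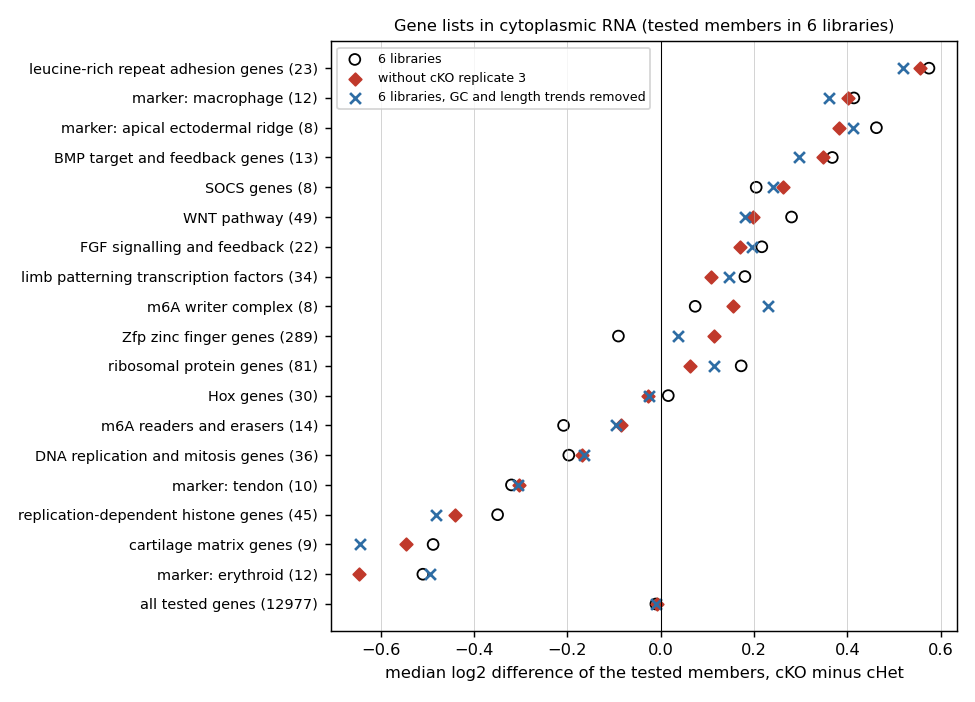
Median log2 difference (cKO minus cHet) of the tested members of 18 gene lists and of all tested genes, with the number of members tested in 6 libraries in parentheses. Circles are the fit of 6 libraries, diamonds the fit without cKO replicate 3 and crosses the fit of 6 libraries with GC and length trends removed; the zinc finger list changes sign between circles and diamonds, from −0.09 to 0.11.

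Genes that rose, and to a lesser degree those that fell, had fewer exons than the genes not called. Among protein-coding genes the median number of exons in the representative transcript was 4 in the 235 that rose, 6 in the 58 that fell and 9 in those not called. Transcripts of 1 to 3 exons made up 47.7% of the higher genes, 24.1% of the lower genes and 13.3% of those not called. Transcripts of more than 10 exons made up 8.51%, 25.9% and 41.8%. By class, 8.06% of tested genes with 2 exons rose and 0.916% fell, against 0.273% and 0.205% of those with more than 20 exons.

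The same was read without any threshold on p. With all 6 libraries, all cKO libraries were above all cHet libraries in 28.8% of protein-coding genes with 1 exon, 38.4% with 2, 33.0% with 3, 21.9% with 4 to 5, 16.6% with 6 to 10, 11.8% with 11 to 20 and 9.57% with more than 20. All cKO were below in 6.41% of genes with 2 exons and in 17.8% of those with more than 20. The median deviation from the cHet mean of genes with 2 exons was 0.25, 0.12 and 0.36 in cKO replicates 1 to 3 and between −0.02 and 0.02 in cHet. Each cKO library thus had the pattern, with replicate 2 the least. For genes with more than 20 exons it was −0.09, −0.03 and −0.12 in cKO, and cHet replicate 3, at 0.07, stood above the other cHet libraries.

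**Figure D5:**
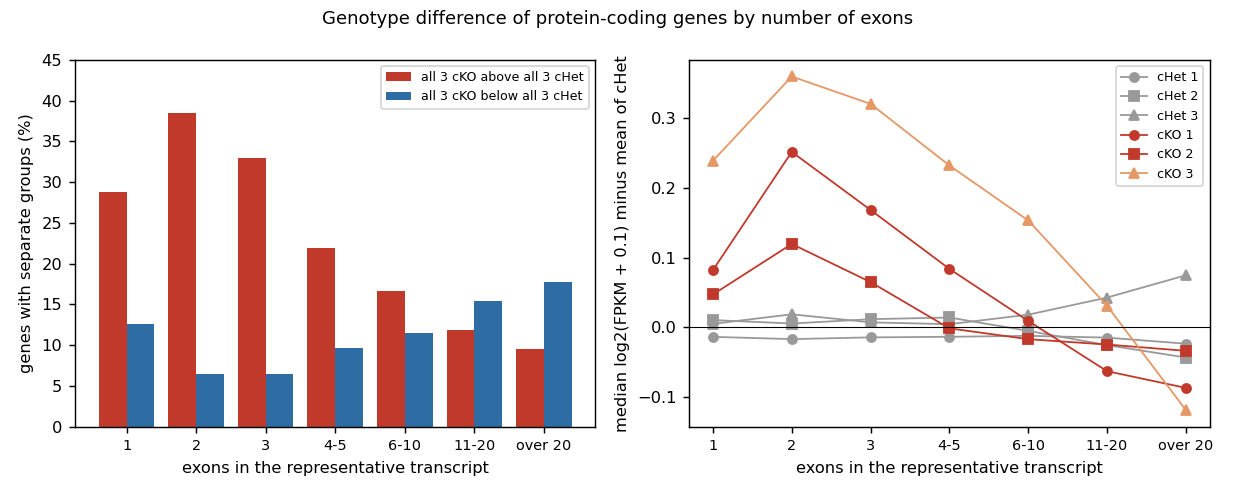
Left, share of tested protein-coding genes in which all 3 cKO libraries lay above (red) or below (blue) all 3 cHet libraries, by number of exons; right, median difference of each library from the cHet mean on the log2(FPKM + 0.1) scale in the same classes. The red bars fall from 38.4% at 2 exons to 9.57% at more than 20, and the 3 cKO lines peak at 2 exons.

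The exon classes were also compared within 3 equal bins of genes by GC content and, separately, by transcript length. These bins are wide and the classes were not matched within them. In the third of protein-coding genes with the least GC, all cKO libraries were above all cHet libraries in 20.4% of genes with 1 to 3 exons and 3.40% with more than 10. In the third with the most GC the shares were 41.0% and 17.6%. In the third with the shortest transcripts they were 31.3% and 6.94%, and in that with the longest 35.9% and 11.3%. The motif GGAC differed less between the groups of genes, with a median of 4.52 per kilobase in genes that rose, 4.38 in genes that fell and 4.16 in the rest. A coding window of the kind printed above was present in 74.5% of genes that rose, 62.1% of genes that fell and 64.7% of the rest.

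On polysomes of the same lysates, 246 of the 248 higher genes tested there were also higher in cKO, with a median log2 difference of 0.71, and 70 of 76 lower genes were lower, with a median of −0.61. Of all genes tested on polysomes 52.9% were higher in cKO. The genes were chosen from input libraries of the same lysates, so this agreement is not independent of that choice. Msx2 had 23.8, 23.98 and 27.1 FPKM on cHet polysomes and 83.6, 46.8 and 56.6 on cKO polysomes, so the groups were apart there too. It did not pass on polysomes (adjusted p = 0.0780, limma). Col9a2 had 4.56, 4.03 and 3.94 FPKM on cHet polysomes and 9.30, 3.38 and 2.42 on cKO polysomes, with a log2 difference of 0.03, and so was among the 6 that were not lower. Efemp1 was another, at 0.06. The cartilage matrix list had a median of 0.13 on polysomes and −0.54 in input. In Col9a2, cKO polysome replicates 2 and 3 were below all cHet polysome libraries and only replicate 1 was above them. For Matn4, replicate 1 had 3.77 FPKM against 1.58 and 1.27 in replicates 2 and 3, and for Cnmd 1.80 against 0.977 and 0.433. For Otor, replicate 1 was the lowest of its group, at 5.56. How far the polysome median of the list rests on this 1 library was not tested. By the interaction over all 12 libraries, 0 of 13610 genes passed for a genotype difference that differed between input and polysomes. An unadjusted p under 0.05 was found in 638 by this limma test. With 3 libraries per group, the count of 0 does not show that the differences were alike. The exon pattern was not alike in the polysome libraries. The median log2 difference of genes with 1 to 3 exons was 0.13 in input (5 libraries) and 0.06 on polysomes, and that of genes with more than 10 exons −0.05 and 0.12, a contrast given as values without a test.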

How the data were processed

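RNA was sequenced from cytoplasmic lysates of limb buds (3 cHet and 3 cKO libraries), and from polysomes of the same lysates for comparison. The submitters' processing notes name HISAT2 2.0.5, featureCounts 1.5.0-p3 and mm10. Values were deposited by the authors as FPKM for 54532 genes. Because FPKM is relative to the total of its library, a value also depends on all other genes. FPKM times gene length gave whole reads (100% of values within 0.01), from which depth was taken. No source used here gives poly(A) selection, rRNA depletion or strandedness. Overlapping and antisense genes therefore cannot be told apart.

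Values were tested as log2(FPKM + 0.1), a scale that understates changes of low genes, with limma 3.58.1 (R 4.3.3, trended empirical Bayes, two-sided) on genes with FPKM of at least 1 in at least 3 fitted libraries. A gene was called at a Benjamini-Hochberg adjusted p under 0.05. The p-values measure the spread between libraries, which may be partly technical where replicates are not separate litters. For a single gene, the smallest p of an exact permutation test is 0.1 with 3 against 3 libraries. It is no smaller with the 5 libraries on which the calls rest. The script was checked on simulated data. Exons, GC and GGAC came from 1 GENCODE M21 transcript per gene on the same build.

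Named are the 5 genes of or behind the series title, the 12 protein-coding genes per direction with the largest change among those called in 5 libraries (separate groups in 6, mean of at least 5 FPKM in the higher group), 4 noncoding genes per direction (mean of at least 2 FPKM in the higher group), and of each list described the called members or those with the smallest p. Members, lists and the choice of the library left out were made with earlier results of these data known. Alternatives were other pseudocounts, filters, scalings and weights, voom, GC and length correction (loess, span 0.5), a replicate block and leaving out each library.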

Additional observations from a re-analysis of the deposited data

How the results depend on the processing

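The 6-library count of 0 held under every alternative run except 4: library quality weights gave 1084 genes, GC and length trends removed 284, and leaving out 1 library gave 0 to 326, with 47 without cKO replicate 2 and 326 without cKO replicate 3. The 5-library count of 326 stayed within 1.5 times under other pseudocounts, scalings, quantile normalization and GC correction (267 to 481). It was 1577 with voom, 593 with robust empirical Bayes, 158 with library quality weights, and 0 with a filter of FPKM of at least 0.1 or with no filter. Leaving out 1 more library gave 0 to 3735: 0 without cHet replicate 1, 2 or 3, 34 without cKO replicate 1 and 3735 without cKO replicate 2, where the lone cKO library is assumed to vary like the cHet ones. The labels do not say whether same-numbered libraries were collected or prepared together. Their deviations correlated at −0.016, −0.089 and −0.033, which shows no pairing but cannot exclude one with so few libraries. With the replicate block the counts were 0 in 6 libraries and 277 in 5, and with the replicate block and GC and length trends removed 0 and 4. The interaction count was 0 with the lysate as a replicate block and without cKO replicate 3. Among the genes named, 5 changed sign under some alternative. In 6 libraries, Zfp189 was at −0.0168 with median-ratio and −0.0299 with protein-coding scaling and ranged from −0.30 to 0.60 with 1 library left out, and Ythdf3 was at 0.21 with quality weights and with 1 left out ranged from −0.73 to 0.26. Sox9 with 1 left out ranged from −0.0911 to 0.12. In 5 libraries, Sox9 was at 0.00058 with protein-coding scaling, 0.0422 with quality weights, 0.12 with the replicate block and 0.0854 with that block and the GC correction, and with 1 more library left out ranged from −0.12 to 0.12. Fgf8 was at −0.0576, −0.17 and −0.13 with quality weights, the block, and the block with GC correction, and with 1 left out ranged from −0.17 to 0.13. Runx1 ranged from −0.14 to 0.0511 with 1 more library left out, and was at −0.20 with the block and GC correction. The causes of these changes were not tested.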
